A study of Schizosaccharomyces pombe with 3 samples.

Results

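*hus5* and *ulp2* are 2 genes of the SUMO pathway of the fission yeast *Schizosaccharomyces pombe*, and their 11 introns, 5 in *hus5* and 6 in *ulp2*, are described here at 3 times around the inhibition of Prp4 kinase. All lines of the deposited junction table that carry either symbol were taken, which gave 11 of 5368 introns and 2 of 2546 genes. The pair was chosen by measured values of these same libraries, the split and unsplit reads of their introns, since *hus5* stayed spliced at 30 min and *ulp2* held unspliced introns. Their levels and differences are therefore a description, and no test of the pair is offered.

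SUMO is a small protein that is joined to lysines of other proteins. A heterodimeric activating enzyme charges it, the conjugating enzyme Hus5 (also called Ubc9) passes it to the substrate, often with the help of a ligase, and proteases of the Ulp family remove it again. Hus5 is the conjugating enzyme of this pathway, and fission yeast *hus5* mutants are known for their sensitivity to hydroxyurea. Ulp2 is a SUMO protease that in budding yeast trims SUMO chains. Prp4 is a protein kinase that acts on the spliceosome shortly before it becomes active.

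All 3 libraries came from a strain in which *prp4* is replaced by the *prp4-as2* allele. In this allele the phenylalanine at the gatekeeper position of the ATP pocket is changed to alanine, which lets the bulky ATP analogue 1NM-PP1 block the kinase. The groups were untreated cells (0 min), cells with 1NM-PP1 for 30 min and cells with 1NM-PP1 for 60 min, with 1 library each, and a wild-type strain with the analogue was not analysed here. Depth came to 910440 junction reads without 1NM-PP1, 852562 after 30 min and 743457 after 60 min. A read at the 5' exon junction of an intron is either split (exon joined to exon, spliced RNA) or unsplit (running on into the intron, unspliced RNA). The unspliced share is the percentage of unsplit reads among both, and the deposited RSEI is log2 of split over unsplit reads after 1 was added to both counts. Shares carry exact (Clopper-Pearson) 95% intervals, and differences and ratios carry 95% intervals too. With 1 library per time these intervals compare libraries and cover counting error only, and since PCR reads without molecular identifiers are not independent molecules they may be too narrow.

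The exon1/5' SS region of each intron is shown first, because the introns are compared below with other introns that hold the same bases or pair as far with snRNA U1. The last 3 bases of the exon are followed by the first 6 bases of the intron (positions -3 to 6), 5′ to 3′. Capitals mark bases that can form a Watson-Crick pair with U1, with A at position 4 counted opposite its pseudouridine. Wobble pairs, such as that of U at position -3, and other pairs with the pseudouridine were not counted.
hus5 intron I: uuuGUAuGU
hus5 intron II: aAGGUAuGU
hus5 intron III: aAuGUAAGc
hus5 intron IV: CAGGUAAGa
hus5 intron V: CAaGUAAGU
ulp2 intron I: gccGUAuGU
ulp2 intron II: aAGGUuuGa
ulp2 intron III: CucGUAAGU
ulp2 intron IV: gAGGUAAGU
ulp2 intron V: ugGGUAuGU
ulp2 intron VI: uAGGUAuGU

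The number of pairing bases by this count was 5, 7, 6, 8 and 8 in *hus5* introns I to V, and 5, 5, 7, 8, 6 and 7 in *ulp2* introns I to VI. *ulp2* intron II begins with GUUUGA and is the only one of the 11 without an A at position 3.

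Whole introns are shown where the values below differ most, with the first 6 bases, the branch pentamer nearest the 3' end and the last 3 bases in capitals. The pentamer was searched as C or U, U, any base, A, C or U on the transcribed strand within the last 40 nt. Such a match is a description of the letters and not a mapped branch site.
hus5 intron I: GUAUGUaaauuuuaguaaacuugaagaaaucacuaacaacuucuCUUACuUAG
hus5 intron II: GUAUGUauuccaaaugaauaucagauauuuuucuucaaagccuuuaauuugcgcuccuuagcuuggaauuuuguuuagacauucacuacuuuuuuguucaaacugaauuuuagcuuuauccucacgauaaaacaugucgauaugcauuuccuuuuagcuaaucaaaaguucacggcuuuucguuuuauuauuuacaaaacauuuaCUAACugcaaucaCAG
ulp2 intron II: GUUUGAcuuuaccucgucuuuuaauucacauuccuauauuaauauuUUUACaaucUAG
ulp2 intron III: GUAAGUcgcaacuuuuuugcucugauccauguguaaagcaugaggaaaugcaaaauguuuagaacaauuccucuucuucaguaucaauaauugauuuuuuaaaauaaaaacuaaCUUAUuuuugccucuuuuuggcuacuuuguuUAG
ulp2 intron IV: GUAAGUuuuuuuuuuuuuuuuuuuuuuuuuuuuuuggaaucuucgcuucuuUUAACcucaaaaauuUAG

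These sequences and all annotations are from the RefSeq assembly ASM294v3, where both genes lie on the minus strand of chromosome I and all 11 junctions fell on an annotated 5' SS. *hus5* intron I (53 nt) is at chrI:1095275-1095327, intron II (221 nt) at chrI:1094921-1095141, intron III (42 nt) at chrI:1094855-1094896, intron IV (49 nt) at chrI:1094696-1094744 and intron V (55 nt) at chrI:1094561-1094615. *ulp2* intron I (46 nt) is at chrI:1766645-1766690, intron II (58 nt) at chrI:1766531-1766588, intron III (148 nt) at chrI:1766189-1766336, intron IV (69 nt) at chrI:1765273-1765341, intron V (54 nt) at chrI:1765114-1765167 and intron VI (84 nt) at chrI:1764793-1764876. All 11 lie between coding exons. *hus5* intron I and *ulp2* intron III each hold a second match, CUAAC, with its A 17 and 34 nt from the end of the intron, upstream of the marked pentamers CUUAC and CUUAU, whose A is 5 and 30 nt from the end. *hus5* intron II and *ulp2* intron II hold further matches upstream of the marked pentamer too.

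**Figure D1:**
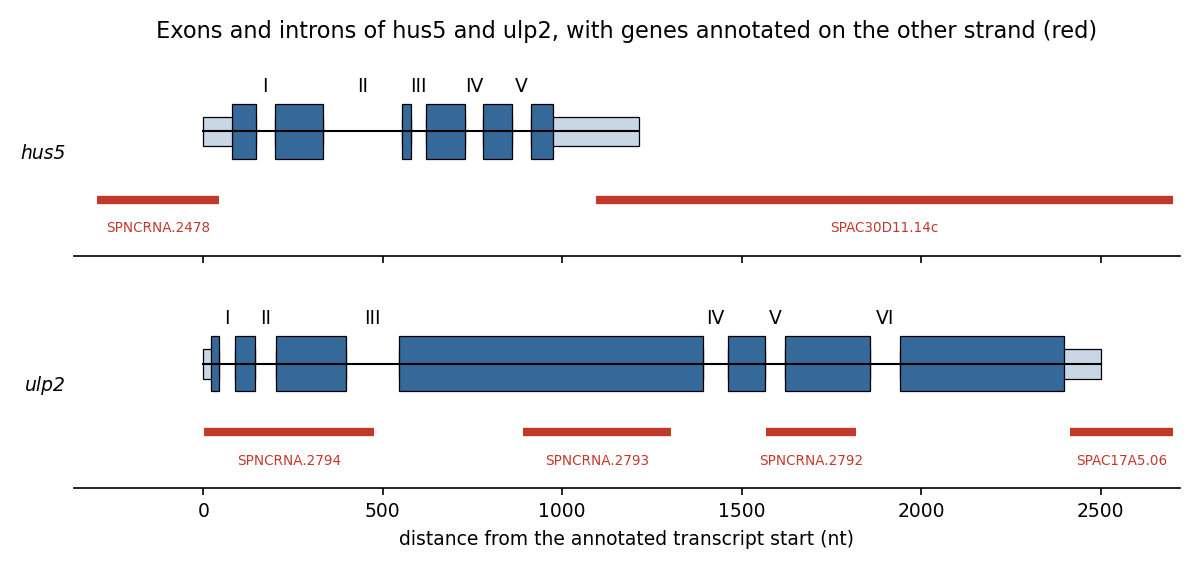
Exons (boxes, coding parts taller) and introns (roman numerals) of *hus5* and *ulp2* against the distance from the annotated transcript start in nt, with genes annotated on the other strand in red. Introns I and II of *ulp2* and the 5' end of its intron III lie under SPNCRNA.2794, and nearly all of its intron V under SPNCRNA.2792, while no 5' exon junction of *hus5* lies under a gene of the other strand.

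In *hus5* (SPAC30D11.13, chrI:1094262-1095474), which encodes a protein of 157 codons, every intron remained mostly spliced at all 3 times. The unspliced share of its introns lay between 0 and 14.7% in untreated cells, between 0.273 and 14% after 30 min with 1NM-PP1 and between 1.68 and 8.7% after 60 min. Over all introns with more than 10 reads in every library (4301 introns), the median share was 6.74% in untreated cells, 39.6% after 30 min with 1NM-PP1 and 25.8% after 60 min. At 30 min the part of these introns with a lower share than a *hus5* intron was 0.442% for intron II and at most 18.8%, for intron V.

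Intron I of *hus5*, which interrupts the coding sequence after 22 codons, had 245 split and 15 unsplit reads in the untreated library, 296 and 41 after 30 min and 304 and 27 after 60 min. Its unspliced share was 5.77% (3.26 to 9.34), 12.2% (8.87 to 16.1) and 8.16% (5.44 to 11.6) at these times, and its RSEI 3.94, 2.82 and 3.45. The share was higher by 6.4 points (1.72 to 10.9) at 30 min than in untreated cells, although the 2 exact intervals overlap. Unsplit reads per junction read of the library were 2.92-fold higher (1.58 to 5.68) at 30 min. At 30 min 16.2% of all introns had a lower share, and its 5 pairing bases are the fewest in the gene.

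Intron II, the longest of the 11, had the lowest unspliced share of them all at 30 min. The table gave it 212 split and 3 unsplit reads in the untreated library, 365 and 1 after 30 min and 293 and 5 after 60 min. The shares were 1.4% (0.289 to 4.02), 0.273% (0.00692 to 1.51) and 1.68% (0.547 to 3.87), with a RSEI of 5.73, 7.52 and 5.61. Its unspliced share at 30 min differed from that of untreated cells by -1.12 points (-3.76 to 0.436), an interval that holds 0. Its split reads were 1.84-fold higher (1.55 to 2.19) at 30 min than in untreated cells, and 0.442% of all introns had a lower share at 30 min.

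Intron III of *hus5* follows an exon of 24 nt. It had 364 split and 7 unsplit reads in the untreated library, 494 and 25 after 30 min and 437 and 11 after 60 min, which gave 1.89% (0.762 to 3.85), 4.82% (3.14 to 7.03) and 2.46% (1.23 to 4.35) and a RSEI of 5.51, 4.25 and 5.19. The share was 2.93 points higher (0.445 to 5.33) at 30 min than in untreated cells. Its unsplit reads were 3.81-fold higher (1.6 to 10.4) and its split reads 1.45-fold higher (1.26 to 1.66) at 30 min. The unsplit part of all junction reads in the table was 6.92% in untreated cells and 30% at 30 min.

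Introns IV and V of *hus5* were covered by far fewer reads. Intron IV had 12 split and 0 unsplit reads in the untreated library, 15 and 1 after 30 min and 21 and 2 after 60 min. Its share was 0% (0 to 26.5), 6.25% (0.158 to 30.2) and 8.7% (1.07 to 28), and its RSEI 3.70, 3.0 and 2.87. No difference was detectable at this depth, with an interval of -18.5 to 28.3 points at 30 min. Intron V had 29 split and 5 unsplit reads in the untreated library, 37 and 6 after 30 min and 35 and 2 after 60 min. Its share was 14.7% (4.95 to 31.1), 14% (5.3 to 27.9) and 5.41% (0.661 to 18.2), its RSEI 2.32, 2.44 and 3.58, and the difference at 30 min -0.752 points (-17.9 to 14.9). In untreated cells the first 3 junctions of *hus5* had 215 to 371 reads, against 12 and 34 at junctions IV and V. The cause of this difference in reads along 1 transcript was not tested. Over the whole gene with its introns, 0 of 1184 30-mers of *hus5* occur elsewhere in the genome, as against 9 of 2472 of *ulp2*. This count does not cover the alignment of split reads across single junctions.

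In *ulp2* (SPAC17A5.07c, chrI:1764233-1766733), which encodes a protein of 638 codons, introns II and III were mostly unspliced at 30 and 60 min, while introns IV and V stayed nearly fully spliced. Among the 4 introns with enough reads, intron III was the only one whose unspliced share rose beyond the exact intervals at 30 min. Introns I and II had 10 or fewer reads in at least 1 library and are outside every count of calls.

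Intron I of *ulp2*, after 7 codons, had 2 split and 0 unsplit reads in the untreated library, 7 and 1 after 30 min and 4 and 0 after 60 min. Its share was 0% (0 to 84.2), 12.5% (0.316 to 52.7) and 0% (0 to 60.2), and its RSEI 1.58, 2.0 and 2.32, so that no difference could be seen at this depth.

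Intron II of *ulp2* had 4 split and 3 unsplit reads in the untreated library, 3 and 20 after 30 min and 5 and 16 after 60 min. Its share was 42.9% (9.9 to 81.6), 87% (66.4 to 97.2) and 76.2% (52.8 to 91.8), and its RSEI 0.32, -2.39 and -1.50. The share at 30 min was 44.1 points above that of untreated cells (6.76 to 72.4), with exact intervals that overlap. Unsplit reads were 7.12-fold higher (2.11 to 37.4) at 30 min, and the ratio of split reads was 0.801 (0.117 to 4.73).

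Intron III of *ulp2* had 8 split and 7 unsplit reads in the untreated library, 12 and 113 after 30 min and 7 and 65 after 60 min. Its share was 46.7% (21.3 to 73.4) in untreated cells, 90.4% (83.8 to 94.9) after 30 min with 1NM-PP1 and 90.3% (81 to 96) after 60 min, and its RSEI 0.17, -3.13 and -3.04. The share was 43.7 points higher (19.6 to 66) at 30 min and 43.6 points higher (18.7 to 66) at 60 min than in untreated cells. Between 60 and 30 min it differed by -0.122 points (-9.99 to 7.98), while over all introns the median share was lower at 60 min.

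The unsplit reads of *ulp2* intron III were 17.2-fold higher (8.1 to 43.9) at 30 min and 11.4-fold higher (5.22 to 29.4) at 60 min than in untreated cells. The ratio of its split reads was 1.6 (0.602 to 4.52) at 30 min and 1.07 (0.331 to 3.38) at 60 min. The 113 unsplit reads at 30 min were more than all split and unsplit reads at junction IV (67) or V (80) of the same gene. Intron III already stood out in untreated cells, where its share was above that of 96.5% of all introns, and at 30 min above that of 93.8%.

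The 5' exon junctions of *ulp2* introns I, II and III lie within SPNCRNA.2794, a non-coding RNA annotated on the plus strand (chrI:1766256-1766731). The libraries were directional and the alignment took orientation into account, but the sources used here do not state whether unsplit reads were counted by strand. If strand was not used, reads of SPNCRNA.2794 and unspliced *ulp2* RNA cannot be told apart at these junctions. SPNCRNA.2792, on the same strand (chrI:1764914-1765166), covers intron V of *ulp2* from its second base on, so unsplit reads at junction V (8, 5 and 3 at 0, 30 and 60 min) also run into an antisense gene. Intron I, under SPNCRNA.2794, had 0, 1 and 0 unsplit reads among only 2, 8 and 4 reads at 0, 30 and 60 min, too few to bear on this question. The part of antisense reads in the values of introns I, II, III and V was not tested.

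Intron IV of *ulp2* lies 3' of the longest exon (847 nt) and has a run of U after its 5' SS. It had 82 split and 1 unsplit reads in the untreated library, 66 and 1 after 30 min and 73 and 1 after 60 min. The share was 1.2% (0.0305 to 6.53), 1.49% (0.0378 to 8.04) and 1.35% (0.0342 to 7.3), and the RSEI 5.38, 5.07 and 5.21. The difference at 30 min was 0.288 points (-5.16 to 6.85), and 0.767% of all introns had a lower share at that time.

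Intron V of *ulp2* had 79 split and 8 unsplit reads in the untreated library, 75 and 5 after 30 min and 86 and 3 after 60 min. Its share was 9.2% (4.05 to 17.3), 6.25% (2.06 to 14) and 3.37% (0.701 to 9.54), and its RSEI 3.15, 3.66 and 4.44. The difference at 30 min was -2.95 points (-11.6 to 5.83). Intron VI had 21 split and 6 unsplit reads in the untreated library, 33 and 13 after 30 min and 35 and 4 after 60 min. Its share was 22.2% (8.62 to 42.3), 28.3% (16 to 43.5) and 10.3% (2.87 to 24.2), and its RSEI 1.65, 1.28 and 2.85. It was 6.04 points higher at 30 min than in untreated cells, with an interval (-15.5 to 24.5) that holds 0, and 18 points lower (-33.6 to -0.768 as 60 min minus 30 min) at 60 min than at 30 min.

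**Figure D2:**
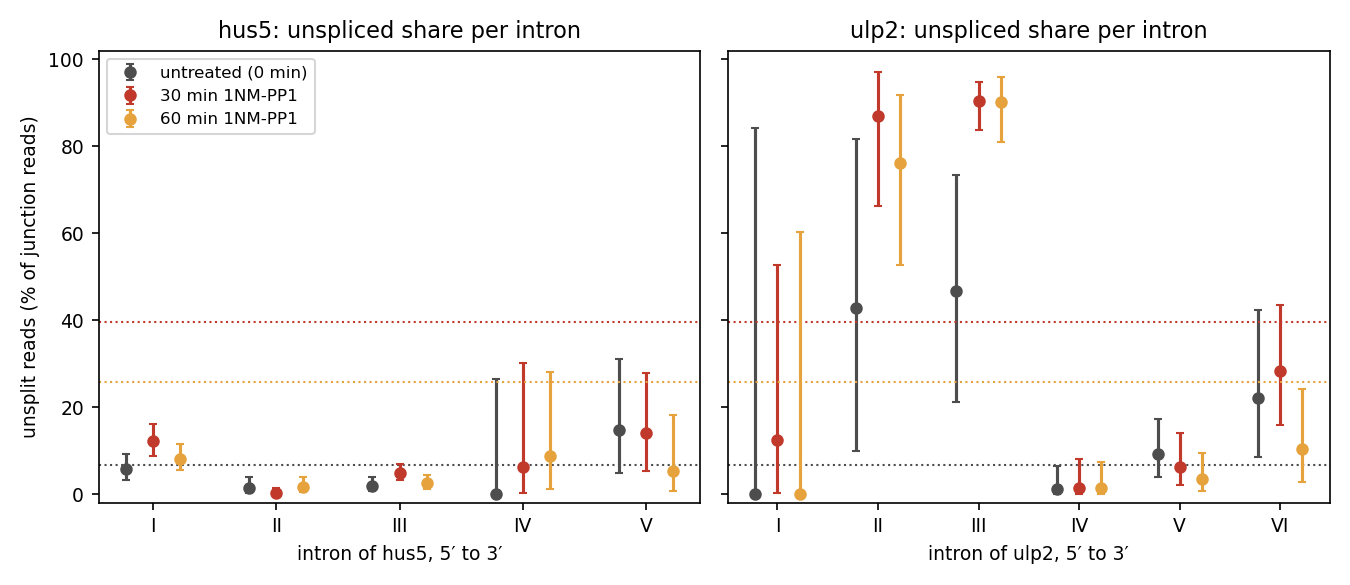
Unspliced share (% of junction reads, vertical axis) of each intron of *hus5* and *ulp2*, 5′ to 3′, at 0, 30 and 60 min, with exact 95% intervals and dotted lines for the median of all introns with more than 10 reads in every library. *ulp2* introns II and III reach 87% and 90.4% at 30 min, while no *hus5* intron is above 14.7% at any time.

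Called more unspliced, with exact intervals at 30 min wholly above those of untreated cells, were 0 of 5 *hus5* introns and 1 of 4 *ulp2* introns (intron III). This call was made for 69.1% of the 4301 introns of the table, and the values of the pair had been used to choose them. The interval of the difference itself lay above 0 in 2 of the 5 *hus5* introns, I and III. In the other direction no intron of the pair was called less unspliced at 30 min than in untreated cells, as against 0.0233% of all introns. At 60 min against untreated cells 0 of 5 and 1 of 4 introns were called more unspliced, the same intron III, where 50.8% of all introns were. From 30 to 60 min no intron of either gene was called less unspliced, against 17.1% of all introns. A negative RSEI at 30 min, more unsplit than split reads, was found in no *hus5* intron and in 1 of the 4 *ulp2* introns, against 39.4% of all introns.

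**Figure D3:**
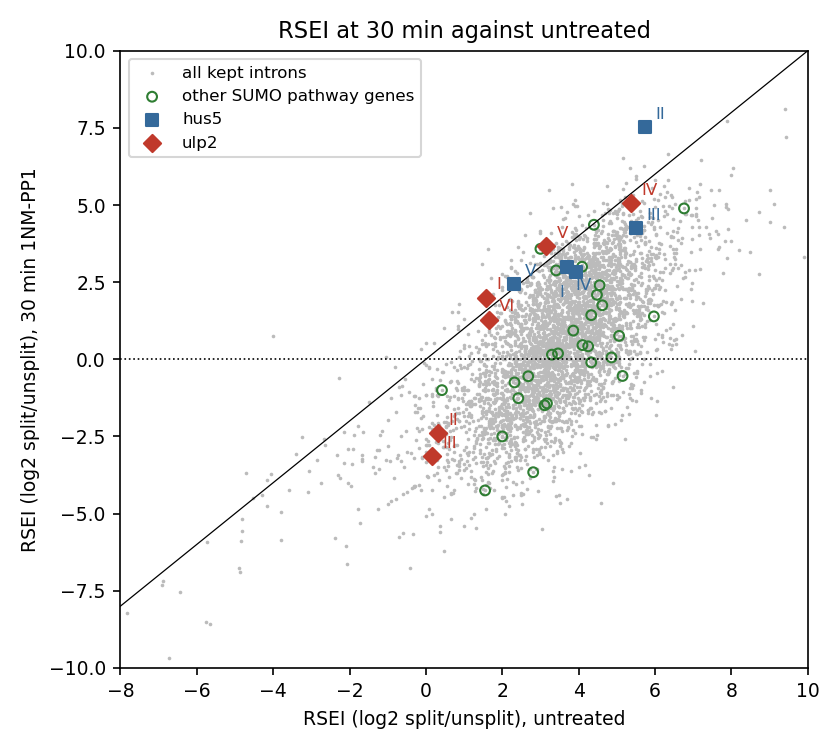
RSEI (log2 of split over unsplit reads) at 30 min (vertical) against untreated cells (horizontal) for all introns with more than 10 reads in every library (grey), other genes of the SUMO list (open circles), *hus5* (squares) and *ulp2* (diamonds). The line marks equal values and the dotted line a RSEI of 0, and *ulp2* introns I and II are drawn although they had too few reads. *hus5* intron II lies above the line at 7.52 and *ulp2* intron III at -3.13.

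Within a gene, the introns of *ulp2* were spread more widely than those of most genes. The RSEI at 30 min spanned 8.20 between introns IV and III of *ulp2*, and 5.08 between introns II and V of *hus5*. At its upper end each span rests on an intron with 1 unsplit read, whose RSEI is poorly fixed. The intervals of these RSEI were 3.52 to 11.4 for *ulp2* intron IV and 6.02 to 13.8 for *hus5* intron II. The pair was chosen by these reads, so its ranks are a description. The median span was 3.27 over 533 genes with at least 3 introns over the read minimum, and 7 of these genes (1.31%) had a wider span than *ulp2* and 99 (18.6%) a wider one than *hus5*.

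The mostly unspliced introns of *ulp2*, II and III, lay in its 5' part, while intron I, nearest the 5' end, had 7 split and 1 unsplit reads at 30 min. In introns I to III together, a division made after the values were seen, 134 of 156 reads were unsplit at 30 min (85.9%, 79.4 to 90.9), against 10 of 24 (41.7%, 22.1 to 63.4) in untreated cells. In introns IV to VI it was 19 of 193 reads (9.84%, 6.03 to 14.9) at 30 min and 15 of 197 (7.61%, 4.32 to 12.2) in untreated cells. At 60 min the shares were 83.5% (74.6 to 90.3) in introns I to III and 3.96% (1.73 to 7.65) in introns IV to VI. Intron III alone held 113 of the 134 unsplit reads of introns I to III at 30 min. The 5' exon junctions of introns I to III also lie within SPNCRNA.2794, so position in the gene and this overlap cannot be told apart. *hus5* showed no such division, with 5.48% (4.27 to 6.91) in introns I to III and 11.9% (4.91 to 22.9) in introns IV and V at 30 min.

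With all introns of a gene summed, both genes had a higher unspliced share at 30 min than in untreated cells, so the pair did not move in opposite directions by this measure. In *hus5* 30 of 892 reads were unsplit in untreated cells (3.36%, 2.28 to 4.77), 74 of 1281 at 30 min (5.78%, 4.56 to 7.2) and 47 of 1137 at 60 min (4.13%, 3.05 to 5.46). The share was higher by 2.41 points (0.604 to 4.14) at 30 min and by 0.77 points (-0.954 to 2.42) at 60 min than in untreated cells. In *ulp2* 25 of 221 reads were unsplit in untreated cells (11.3%, 7.46 to 16.2), 153 of 349 at 30 min (43.8%, 38.6 to 49.2) and 89 of 299 at 60 min (29.8%, 24.6 to 35.3). The share was higher by 32.5 points (25.5 to 38.9) at 30 min and by 18.5 points (11.6 to 24.9) at 60 min. Intron III carried most of this, since without it 17.9% of the *ulp2* reads at 30 min and 10.6% at 60 min were unsplit. The share of *ulp2* exceeded that of *hus5* by 7.95 points (4.15 to 12.9) in untreated cells, 38.1 points (32.8 to 43.4) after 30 min with 1NM-PP1 and 25.6 points (20.6 to 31.1) after 60 min. At 30 min 3.13% of the 2202 genes with enough reads had a lower share than *hus5*, and 53% a lower share than *ulp2*.

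Reads at the junctions of both genes made up a larger part of their library after inhibition. In *hus5* they came to 980 per 1000000 junction reads in untreated cells, 1503 after 30 min with 1NM-PP1 and 1529 after 60 min, a ratio to untreated cells of 1.53 (1.41 to 1.67) at 30 min and 1.56 (1.43 to 1.71) at 60 min. The split reads of *hus5* alone had a ratio of 1.5 (1.37 to 1.63) at 30 min. The median gene had a ratio of 1.1 at 30 min and 1.09 at 60 min, and 80.8% and 85.3% of genes had a lower ratio than *hus5*. An interval above 1 was found for 34.9% of the 2202 genes at 30 min and for 32.1% at 60 min.

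In *ulp2* junction reads came to 243 per 1000000 in untreated cells, 409 after 30 min with 1NM-PP1 and 402 after 60 min, a ratio of 1.69 (1.42 to 2.01) and 1.66 (1.39 to 1.98). With this scaling by all junction reads, the unsplit reads made up the difference at 30 min, with a ratio of 6.54 (4.26 to 10.4). The split reads had a ratio of 1.07 (0.872 to 1.31) at 30 min and 1.31 (1.07 to 1.6) at 60 min, the latter an interval above 1. For the whole table, the unsplit part of junction reads was 6.92% in untreated cells and 30% at 30 min. Scaled by all split reads instead, the split reads of *ulp2* had a ratio of 1.42 at 30 min, so their ratio depends on the scaling. Without intron III the ratio of all *ulp2* junction reads at 30 min was 1.16 (0.957 to 1.41), an interval that holds 1. Junction reads depend on the amount of RNA and on its splicing, so they are no measure of gene expression by themselves.

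**Figure D4:**
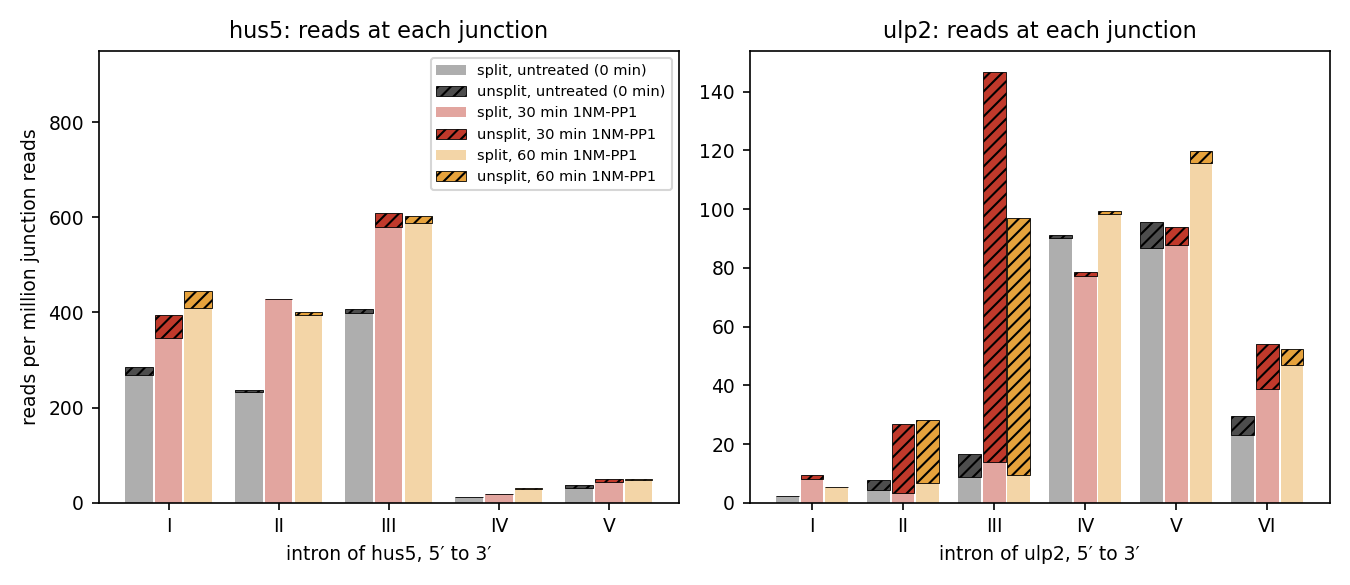
Split (plain) and unsplit (hatched) reads per 1000000 junction reads of the library (vertical axis, scale differs between panels) at each junction of *hus5* and *ulp2* at 0, 30 and 60 min. The 3 junctions at the 5′ end of *hus5* carry most of its reads, and in *ulp2* the unsplit reads of intron III stand out at 30 and 60 min.

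Reading of the retained introns in frame gave a stop codon in 10 of the 11 introns. If intron II of *ulp2* is retained a stop is met at codon 45, and with intron III at codon 111 of 638. Intron I of *ulp2* holds no in-frame stop, but its retention shifts the frame to a stop at codon 25. In *hus5* the stops are at codons 27, 72, 84, 124 and 139 of 157 for introns I to V.

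Other introns with the same 9 bases of the exon1/5' SS region give a measure of how the pair compares with introns of equal 5' SS. *hus5* intron II (AAGGUAUGU) had 98 such introns, whose median share at 30 min was 15.4% (0 to 81.2% from lowest to highest), against 0.273% in *hus5*. *hus5* intron I (UUUGUAUGU) had 5, with a median of 26.6% and none below 18.6%, against its own 12.2%. The 9 introns sharing AAUGUAAGC with *hus5* intron III had a median of 33.3%, against 4.82%. For introns IV (CAGGUAAGA, 16 others) and V (CAAGUAAGU, 31 others) the medians were 18.1% and 31%. Each of the 5 *hus5* introns lay below the median of its own 5' SS, but the interval of intron IV (0.158 to 30.2) holds that median. Since *hus5* was chosen as a gene that stayed spliced at 30 min, this position follows in part from the choice.

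In *ulp2*, chosen because it held unspliced introns at 30 min, the introns lay on both sides of that median. Intron III (CUCGUAAGU) had 90.4% at 30 min, above each of the 8 other introns with these bases, which ranged from 1.41 to 76.8% with a median of 52.6%. Intron II (AAGGUUUGA) had 87%, above the 5 others, at 32.4 to 80% and a median of 51.9%, but its interval (66.4 to 97.2) overlaps that range. Intron VI (UAGGUAUGU, 26 others) had 28.3%, against a median of 12.9%. Intron IV (GAGGUAAGU, 37 others) had 1.49%, against 25.3%, and intron V (UGGGUAUGU, 24 others) 6.25%, against 27%. For intron I (GCCGUAUGU) 1 other intron was found, with 58.5%. These are levels at 30 min and not rises from untreated cells. In untreated cells intron III already had 46.7%, against a median of 4.45% in the introns with its bases. Introns II and VI had 42.9% and 22.2% there, against 7.69% and 6.46%. Intron V had 9.2%, against 6.9%, and intron IV 1.2%, against 6.35%. Introns II, III and VI thus lay above the median of their 5' SS before inhibition as well.

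Over all introns the share at 30 min was lower with more bases that can pair with U1, wobble pairs not counted. The median was 59.3% with 5 pairing bases (865 introns), 38.8% with 6, 29.3% with 7 and 21.8% with 8 (327 introns). *ulp2* intron III, with 7 pairing bases, lay above the median of its class, and *hus5* intron I, with 5, below that of its class. *ulp2* intron II, with 5 as well, lay above it.

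The branch pentamer CUAAC, nearest the 3' end in 32.6% of introns, was the nearest match in *hus5* intron II and *ulp2* intron I. Less frequent pentamers were UUUAC (2.78% of introns) in *ulp2* intron II, CUUAU (2.53%) in *ulp2* intron III and CUUAC (2.76%) in *hus5* intron I. The median share at 30 min was 34.6% over introns with CUAAC, 40% with UUUAC, 50% with CUUAU and 50% with CUUAC. The nearest match was thus a rare pentamer in both mostly unspliced *ulp2* introns and in the mostly spliced *hus5* intron I. However, *hus5* intron I and *ulp2* intron III also hold CUAAC further upstream, with its A 17 and 34 nt from the end of the intron. *ulp2* intron II also holds UUAAU, the nearest match in 5.57% of introns, with its A 16 and 34 nt from the end, and UUCAC at 30 nt. In each of these introns the marked pentamer depends on taking the nearest match.

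Among 23 genes listed for the SUMO pathway, 16 had introns in the table, with 44 introns, of which 37 had more than 10 reads in every library. Of these, 22 (59.5%) were called more unspliced at 30 min, none less, and 12 (32.4%) had a negative RSEI, against 69.1% and 39.4% of all 4301 introns. Without *hus5* and *ulp2* it was 21 of 28 introns (75%), near the 69.1% of all introns, with a median share of 4.52% in untreated cells, 44.2% after 30 min with 1NM-PP1 and 25.1% after 60 min. The genes *ulp1*, *slx8*, *rfp1*, *wss1*, *nse3*, *nse5* and *nse6* were not analysed here.

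For the SUMO gene itself, *pmt3*, the unspliced share over the gene was 3.93% in untreated cells, 27.4% (22.8 to 32.4) after 30 min with 1NM-PP1 and 21.7% after 60 min. For the activating enzyme it was 7.66%, 39.3% (32.4 to 46.5) and 17.3% in *rad31*, and 2.63%, 57.4% (44.1 to 70) and 40% in *fub2*. *hus5*, which acts after them, had 5.78% at 30 min. Of the ligases, *pli1* had 14.5%, 71.4% (56.7 to 83.4) and 43.2%, and *nse2* 1.07%, 5.15% (3.53 to 7.23) and 2.36% at 0, 30 and 60 min. The interval of *nse2* at 30 min overlaps that of *hus5*, and the other genes of the list lay higher. These are shares over whole genes, and in some of these genes single introns differed widely at 30 min. In *pmt3* intron I had 48.9% and intron II 4.12%. In *fub2* intron II had 74.3% and intron III 6.25% (15 split and 1 unsplit reads). In *ufd1* intron III had 85.9% and intron II 0% (11 split and 0 unsplit reads).

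Of the genes that act on SUMO-modified proteins, *rfp2*, a subunit of a SUMO-targeted ubiquitin ligase, had 8.59%, 47.4% (39.4 to 55.6) and 27%. *ulp2*, at 43.8% at 30 min, lay within the range of that gene's interval. The share at 30 min was 65.9% (59 to 72.3) in *ufd1*, 23% (17.9 to 28.9) in *npl4* and 22.6% (17 to 29.1) in *cdc48*, which together make a protein-unfolding complex, and 15.2% (8.97 to 23.6) in *rad60*, which encodes a protein with SUMO-like domains. In the genes of the Smc5-Smc6 complex, which holds the ligase Nse2, it was 55.2% (42.6 to 67.4) in *smc5* and 94.9% (82.7 to 99.4) in *smc6*. It was 59.6% (44.3 to 73.6) in *nse1* and 53.8% (48.8 to 58.7) in *nse4*. The value of *smc6* rests on 1 intron with 39 reads at 30 min and 14 in untreated cells.

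**Figure D5:**
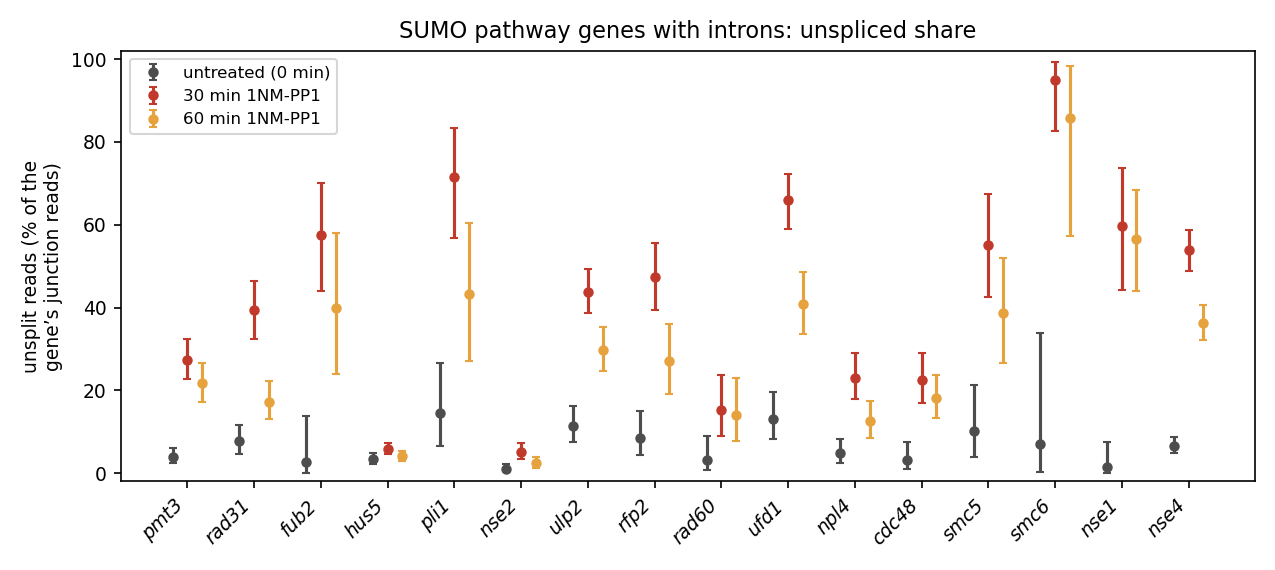
Unspliced share over all introns of each SUMO pathway gene (% of the gene's junction reads, vertical axis) at 0, 30 and 60 min, with exact 95% intervals. At 30 min *hus5* (5.78%) and *nse2* (5.15%) are lowest and *smc6* (94.9%, 1 intron with 39 reads) is highest, with *ulp2* at 43.8%.

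Set beside the other conjugating enzymes of ubiquitin and ubiquitin-like proteins, *hus5* had the lowest share at 30 min of 13 genes. The other 12 genes ranged from 11.2% in *ubc4* to 57.3% in *ubc13*, and 30 of their 36 introns (83.3%) were called more unspliced at 30 min, against 69.1% of all introns. Only *ubc6* of these 12 genes had a higher ratio of junction reads at 30 min than *hus5*. Among 13 proteases of ubiquitin and ubiquitin-like proteins with enough reads, 6 of the other 12 had a lower share at 30 min than *ulp2*. They ranged from 8.48% in *otu2* to 92.4% in *ubp8*, and 17 of their 27 introns (63%) were called more unspliced, near the 69.1% of all introns.

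Among 532 other genes with at least 3 introns over the read minimum, those with the pooled shares most like *hus5* at the 3 times were *cox12*, *SPBC3E7.07c* and *spn2*. Likeness was measured as the root mean square difference of the pooled share over 3 libraries, and was 0.248, 0.614 and 0.975 points. *cox12*, for a subunit of cytochrome c oxidase, had 3.04%, 5.57% and 4.34% at 0, 30 and 60 min, and *spn2*, for a septin, 1.75%, 5.74% and 4.63%. Most like *ulp2* were *sgo2*, for a shugoshin, *spg1*, for a GTPase of septum formation, and *cmk2*, for a protein kinase, at 0.387, 0.631 and 1.39 points. *sgo2* had 10.9%, 44.2% and 29.4% and *spg1* 10.3%, 43.4% and 29.7%.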

How the data were processed

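The authors made directional libraries from polyadenylated RNA, removed adapters with TagDust, aligned reads with TopHat v2.0.5, kept uniquely mapped reads and deposited raw counts of split and unsplit reads in 3 bases around each 5' exon junction. SAMtools is also named in the submitters' processing notes. The log2 values deposited by the authors (RSEI) equal log2 of the counts with 1 added in 16122 of 16122 cells (tolerance 1e-09).

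Of 5374 lines 6 repeats were dropped. Introns needed more than 10 reads in every library, with a median of 83, 82 and 72 reads at 0, 30 and 60 min. Intervals of shares are Clopper-Pearson, of differences Newcombe, and of ratios exact conditional binomial, all 95%. There was 1 library per time, so no p-value was computed. The authors used the annotation ASM294. Here RefSeq ASM294v3 was used, in which 5187 of 5368 junctions matched an annotated 5' SS. Positions -3 to 6 were scored for Watson-Crick pairing with the 5' end of U1, without wobble pairs.

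The members and lists were chosen with earlier results of these data known. Named are the introns of both genes, every SUMO list gene, the 3 genes nearest to each, and the ends of each enzyme family. The *ulp2* division was made after its values were seen. The procedure was tested on simulated data. Alternatives changed the pseudocount, pooling, scaling, read minimum and interval. Python 3.11.15, numpy 2.4.6, pandas 2.3.3 and scipy 1.17.1 were used.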

Additional observations from a re-analysis of the deposited data

How the results depend on the processing

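No paired analysis was possible because there was 1 library per time. The 63 alternatives of the RSEI (0.5 or nothing added) kept its sign and stayed within its interval, and no other value changed direction. The share of *hus5* at 30 min (5.78%) was 7.49% as a mean over introns, 3.5% without intron I and 7.98% without intron II, and at 60 min 2.48% without intron I. The share of *ulp2* in untreated cells (11.3%) was 20.4% as a mean and 17.4% without intron IV. At 30 min (43.8%) it was 37.6% as a mean, 17.9% without intron III, 53.9% without IV and 55% without V, and at 60 min (29.8%) 10.6%, 39.1% and 41% without III, IV and V. The ratio of junction reads of *hus5* was 1.39 at 30 min and 1.42 at 60 min by the median of ratios, and 1.99 and 1.87 for split reads over all split reads. That of *ulp2* at 30 min was 1.42 for split reads over all split reads and, in alternatives chosen after seeing the data, 1.16, 2.18 and 2.14 without introns III, IV and V. At 60 min it was 1.35 and 2.0 without III and IV. With more than 50 reads required, 1862 of 2398 introns were called more unspliced at 30 min (2970 of 4301 otherwise), 12 of 20 of the SUMO list (22 of 37) and 0 of 2 *ulp2* introns (1 of 4), a minimum that removes intron III. By the interval of the difference 2 of 5 *hus5* introns were called, against 0. Depth limits *hus5* intron IV and *ulp2* introns I, II and III most, the last with 15 reads in untreated cells.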
